A study of Mus musculus with 2 samples.

Results

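The collagen genes are described here in single prostate cells from mice with a floxed human androgen receptor transgene, across fibroblasts, mural cells, endothelium, basal cells and luminal cells. Members were all features of the deposited table whose symbol reads Col, a number, a and a number, except Col17a1, and 41 of the 19320 features qualified. Col9a1 and Col19a1, which belong to the same families, had no row in the table used here. None of the 41 members was without a molecule, but 5 (Col2a1, Col6a6, Col22a1, Col24a1 and Col25a1) had fewer than 20 in all cells together. Members were taken by name and not by any measured value.

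The series held 2 libraries of droplet single-cell RNA-seq, 1 per tissue, so that no difference between them has a replicate. One tissue was labelled prostatic intraepithelial neoplasia (PIN, an early lesion of atypical epithelium inside the gland) and the other prostatic adenocarcinoma (PCa), from mice aged 6 months and 12 months. All animals were R26 mTmG/hAR:Osr1 Cre/+ on a mixed C57BL/6 and 129S1/SvImJ background. Osr1-Cre, expressed in a lineage of the embryonic urogenital tract, switches on both the human receptor and a membrane green fluorescent protein, and no mice without the transgene were part of these samples. How many mice were pooled is not given in the sources used here. The table holds both libraries, and each cell barcode ends in 1 or 2. The labels do not tie an ending to a tissue, so cells are described as barcode set 1 (6332 cells) and barcode set 2 (9410 cells) and the sets are not named as PIN or PCa. The cell count that the study states for PIN equals that of set 1 and the one for PCa is close to that of set 2, but a count is not a label and no set was assigned from it. The tissue, the age of the mice and the library cannot be told apart in any difference between the sets. A total of 67 barcode sequences occurred in both sets.

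Collagens are triple-helical proteins of the extracellular matrix, and each helix is built from 3 chains that are encoded by one gene or by several. Fibrillar collagens (types I, II, III, V, XI, XXIV and XXVII) form the tensile fibers of connective tissue and are made mainly by fibroblasts. Type IV forms the sheet-like network of basement membranes under epithelia and around vessels, type VI forms beaded filaments beside cells, and type VII anchors the basement membrane to the stroma below. FACIT collagens such as types XII, XIV and XVI sit on the surface of fibrils, multiplexins (types XV and XVIII) lie in basement membrane zones and carry fragments known as restin and endostatin, and a few collagens (types XIII, XXIII and XXV) span the cell membrane. In the prostate, a sleeve of smooth muscle and fibroblasts surrounds each gland, and basal cells rest directly on the basement membrane.

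Levels are given as CPM, the UMIs (unique molecular identifiers, 1 per captured RNA molecule) of a gene per 1000000 UMIs of the same cells, summed over the cells of a class in 1 barcode set. UMIs were taken at the 3′ end, so a level is not scaled by gene length. Ranges in parentheses are exact 95% intervals that cover counting error alone. Set 1 held 134850345 UMIs and set 2 held 187280119, with medians of 17235 and 14824.5 UMIs per cell. After removal of likely doublets, fibroblast-like cells numbered 197 in set 1 and 361 in set 2, mural-like cells 5 and 87, endothelium-like cells 40 and 170, basal-like cells 1704 and 361, and luminal-like cells 1354 and 7575. Classes were named from markers that include no collagen, and the collagen genes were kept out of the features that defined the clusters.

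The class names were checked against their markers. All 8 fibroblast markers were found in fibroblast-like cells of both sets, with a summed level of 11095 and 12291 CPM, and Dcn, which encodes the collagen-binding proteoglycan decorin, stood at 7264 and 7463 CPM. All 8 endothelial markers were found in endothelium-like cells. The mural-like cells differed between the sets: the 5 cells of set 1 held Acta2 (smooth muscle actin) at 19628 CPM and Rgs5 (a pericyte marker) at 163 CPM, against 1593 and 7716 CPM in the 87 cells of set 2. With 5 cells in set 1, the mural-like class was described in set 2 only. RNA of the epithelium was present in stromal cells as well: the 8 luminal markers summed to 1223 and 4242 CPM in fibroblast-like cells, and their part in the collagen levels was not tested.

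Free RNA, which leaks from broken cells into droplets, was gauged in lymphocyte-like cells, a type that makes next to no collagen. The 1022 lymphocyte-like cells of set 1 held 58 collagen UMIs, or 11.9 (8.999 to 15.3) CPM. Those of set 2 numbered 46 and held 13 collagen UMIs, or 79.5 (42.3 to 136) CPM. Of these 13 UMIs, 10 lay in 1 cell, and without it the level was 19.5 CPM. In set 1, 15 of the 58 UMIs lay in 1 cell, and the level without it was 8.81 CPM. The background was therefore known far better in set 1 than in set 2.

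Summed over the 41 genes, collagen was highest in the stromal classes. Fibroblast-like cells held 4310.4 (4214 to 4408) CPM in set 1 and 3951 (3866 to 4037) CPM in set 2. Mural-like cells of set 2 held 17598 (17294 to 17905) CPM, and the 5 cells of set 1 held 1654 CPM from 61 UMIs. Endothelium-like cells held 2473 (2294 to 2662) and 3439 (3358 to 3522) CPM. In set 2 mural-like cells thus stood above the other stromal classes, whereas the 5 cells of set 1 were too few to place the class there. Basal-like cells held 309 (302 to 316) and 274 (255 to 295) CPM, which was 7.17% and 6.95% of the fibroblast-like level. Luminal-like cells held 33.2 (31.5 to 34.9) and 23.04 (22.3 to 23.8) CPM, or 0.7701% and 0.583% of that level. A second luminal class, the proximal luminal-like cells, was close to the luminal-like level at 32.8 and 34.2 CPM.

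**Figure D1:**
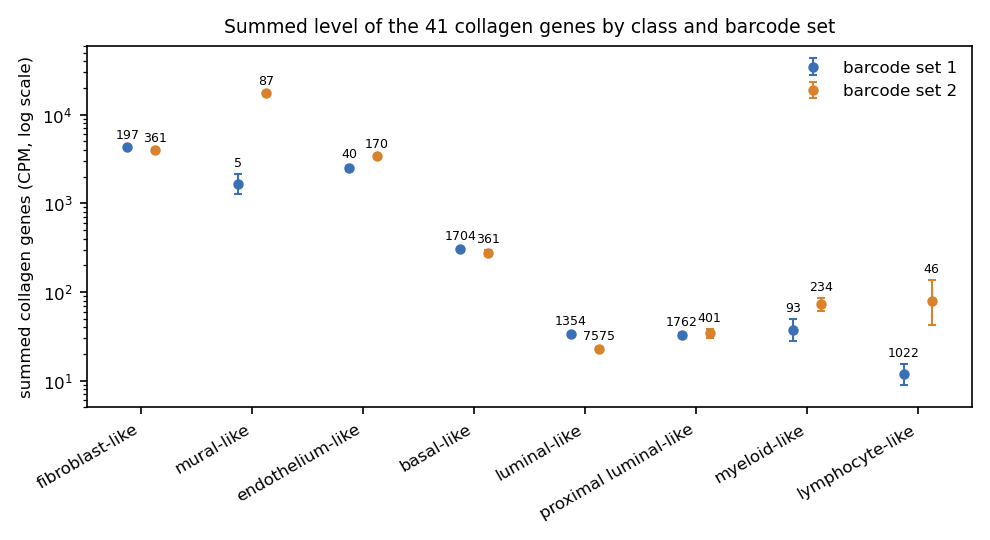
Summed level of the 41 collagen genes (CPM, log axis) in each cell class, with 1 point per barcode set and exact 95% counting intervals. Stromal classes with more than 5 cells lie at or above 2473 CPM, basal-like cells at 309 and 274 CPM, and luminal-like cells lie between 23.04 and 33.2 CPM.

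Against the lymphocyte-like background, the fibroblast-like level was 364 (281 to 479) times higher in set 1 and 49.7 (29.1 to 93.4) times higher in set 2. For basal-like cells the ratios were 26.1 (20.1 to 34.4) and 3.45 (2.01 to 6.52). The smaller ratios of set 2 follow its higher background estimate. Luminal-like cells were 2.801 (2.15 to 3.71) times the background in set 1 and 0.2899 (0.169 to 0.545) times in set 2. The last ratio depended on the scale and on 1 cell. Lymphocyte-like cells of set 2 had a median of 2768 UMIs and luminal-like cells one of 16559, and CPM divides by these totals. In UMIs per cell, a scale added after the data were seen, luminal-like cells held 1.08 and 0.5003 collagen UMIs and lymphocyte-like cells 0.0568 and 0.283, so that luminal-like cells were higher in both sets (by 4.25 and 0.82 on the log2 scale). Without the single richest lymphocyte-like cell, the CPM ratio of set 2 turned to just above 1 (0.24 on the log2 scale). Whether luminal-like cells of set 2 held collagen RNA above the background was therefore not settled by these values.

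The share of a set's collagen UMIs that each class supplied followed both the level and the number of cells. Fibroblast-like cells gave 40.8% of the collagen UMIs of set 1 and 25.2% of those of set 2. Basal-like cells, which were numerous in set 1, gave 36.9% and 2.21%, and mural-like cells 0.326% and 38.99%. Endothelium-like cells gave 3.79% and 20.7%. At least 1 collagen UMI was found in 100% and 99.7% of fibroblast-like cells, in 84.0% and 66.5% of basal-like cells, in 54.6% and 30.2% of luminal-like cells, and in 2.64% and 8.70% of lymphocyte-like cells. Median depth behind these shares differed widely, from 2768 UMIs in lymphocyte-like cells of set 2 to 29150.5 in luminal-like cells of set 1.

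A gene was counted as above background in a class when its level was at least 4-fold over that of lymphocyte-like cells in both sets, with at least 20 UMIs over both sides and a sum of 0 set to a floor of 3 UMIs. In fibroblast-like cells 12 of 25 collagen genes with enough UMIs passed (Col1a1, Col1a2, Col3a1, Col5a2, Col4a1, Col4a4, Col4a6, Col6a1, Col6a2, Col8a1, Col12a1 and Col15a1), beside 6.93% of all genes tested. In endothelium-like cells 3 of 5 passed (Col4a1, Col4a2 and Col18a1), beside 7.59%. In basal-like cells Col18a1 passed alone of 6, beside 4.99%, and in luminal-like cells none of 7 passed, beside 2.72%. In mural-like cells of set 2, where a single set had to pass, 16 of 19 passed, beside 14.9%. With 46 lymphocyte-like cells in set 2, a gene without a UMI there met a stricter bar (the floor of 3 UMIs) than Col4a4 or Col4a6, which had 1 UMI there. Members that did not pass were therefore not shown to be at background. Without the richest lymphocyte-like cell, Col4a6 lost its call in fibroblast-like cells and 11 genes passed there. In UMIs per cell in place of CPM, 18 genes passed in fibroblast-like cells (beside 12.7% of all genes), 5 in endothelium-like cells (beside 14.9%), 1 in basal-like cells (Col18a1, beside 14.3%), none in luminal-like cells (beside 36.5%) and 19 in mural-like cells of set 2 (beside 35.5%). Against all leukocyte-like cells in place of lymphocyte-like cells, a larger background, 26 genes passed in fibroblast-like, 5 in endothelium-like and 5 in basal-like cells. No share of all genes is at hand for these counts or for those without the richest lymphocyte-like cell. They are therefore not read as particular to collagen genes.

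**Figure D2:**
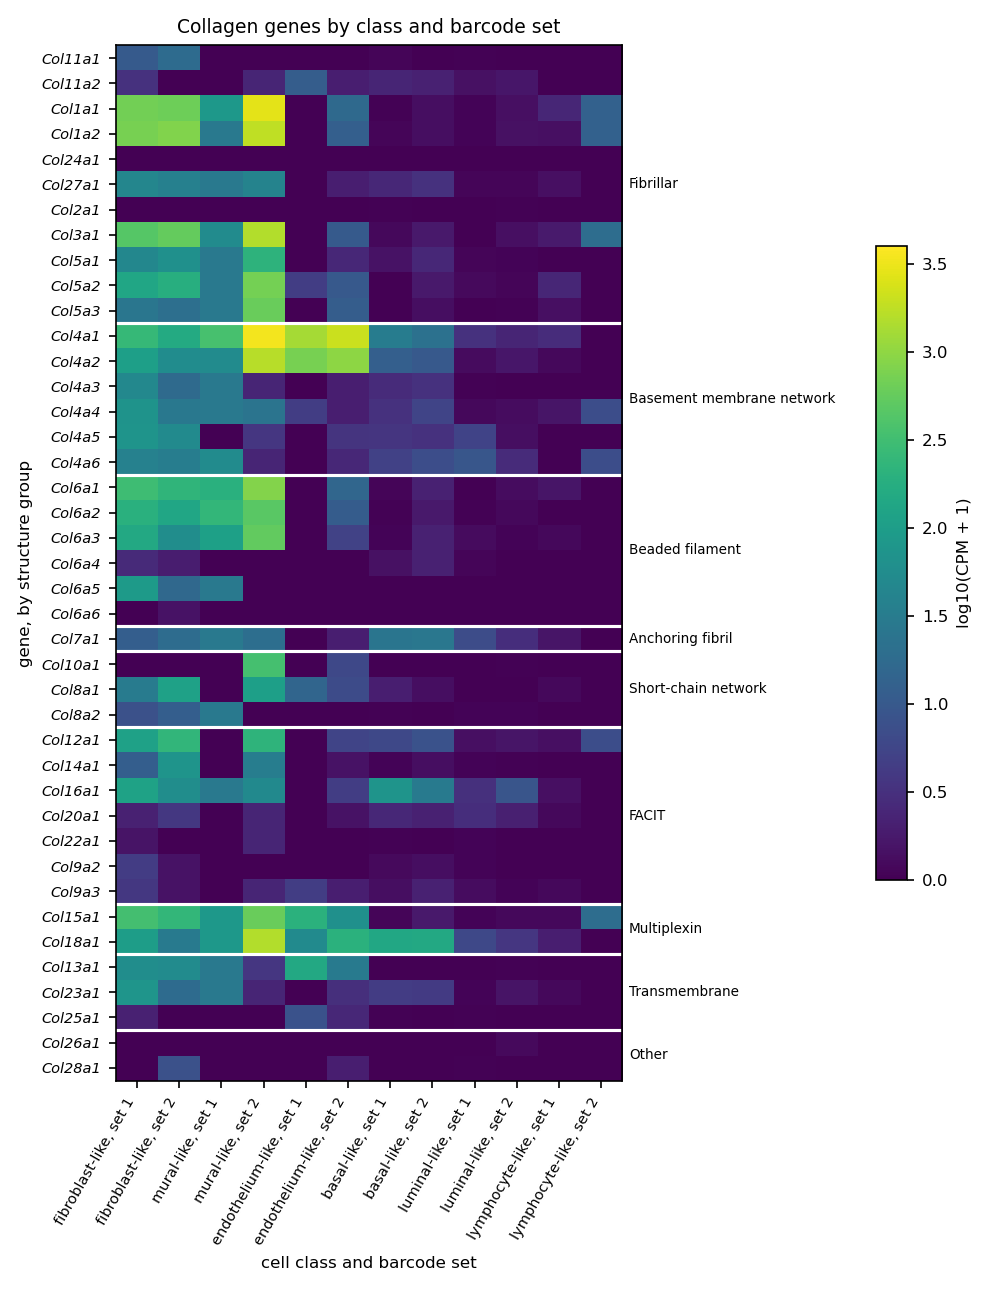
Levels of the collagen genes (rows, grouped by structure) in each cell class and barcode set (columns), colored by CPM on a log scale. Fibrillar and beaded filament genes are filled in the fibroblast-like and mural-like columns, Col4a1 and Col4a2 also in the endothelium-like columns, and Col16a1 and Col18a1 stand out in the basal-like columns.

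Fibrillar collagens separated fibroblast-like and mural-like cells from endothelium-like and epithelial cells. Their summed level was 2122 and 2329.6 CPM in fibroblast-like cells, 7689 CPM in mural-like cells of set 2, 13.95 and 60.2 CPM in endothelium-like cells and 3.94 and 7.57 CPM in basal-like cells. Col1a1 (chr11:94936224-94953042 in GRCm38.p6), the α1 chain of type I collagen, was measured at 692 (653 to 731) and 631 (598 to 666) CPM in fibroblast-like cells. In mural-like cells of set 2 it stood at 2851 (2729 to 2976) CPM, of which 23.3% came from 1 cell, and at 2252 CPM without that cell. The mural-like level thus exceeded the fibroblast-like one with or without that cell. Endothelium-like cells held 0 (0 to 12.9) CPM in set 1, where no UMI was found, and 16.2 (11.1 to 22.9) CPM in set 2. Basal-like cells held 0.0448 and 0.379 CPM from 1 UMI in each set, and luminal-like cells 0.0682 and 0.413 CPM, which is 0.00986% and 0.0655% of the fibroblast-like level. Lymphocyte-like cells stood at 1.43 and 12.2 CPM, above both epithelial classes, and they were above them in UMIs per cell as well, at 0.00685 and 0.0435 against 0.00222 and 0.00898 in luminal-like cells. Epithelial Col1a1 was thus at or below background.

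Col1a2 (chr6:4505618-4541543), the α2 chain of type I collagen, and Col3a1 (chr1:45311538-45349706), the single chain of type III collagen, were likewise highest in fibroblast-like and mural-like cells. Their promoters are shown because these are the fibrillar genes of the stroma for which a window was at hand, each as the 250 bases before the annotated start in RefSeq for GRCm38.p6 (Col1a2 chr6:4505368-4505617, plus strand; Col3a1 chr1:45311288-45311537, plus strand). Capitals mark 3 short motifs on either strand: the CCAAT box, the TATA element TATAAA and the GC box GGGCGG.
Col1a2: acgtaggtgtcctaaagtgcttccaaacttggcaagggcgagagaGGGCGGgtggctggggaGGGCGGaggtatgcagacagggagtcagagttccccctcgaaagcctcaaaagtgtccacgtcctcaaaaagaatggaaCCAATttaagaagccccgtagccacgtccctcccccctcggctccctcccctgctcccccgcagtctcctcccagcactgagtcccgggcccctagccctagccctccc
Col3a1: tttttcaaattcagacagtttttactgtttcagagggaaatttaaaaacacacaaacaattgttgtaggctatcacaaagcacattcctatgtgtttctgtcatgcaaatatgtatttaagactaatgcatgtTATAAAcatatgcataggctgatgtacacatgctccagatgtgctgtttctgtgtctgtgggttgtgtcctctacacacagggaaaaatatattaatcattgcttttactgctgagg
Of 34 windows found for 32 members, 11 held CCAAT, 4 held TATAAA and 22 held GGGCGG, beside 33.8%, 12.4% and 32.7% of all 32851 windows of this length. Windows of Col1a1, Col2a1, Col4a3, Col5a2, Col9a3, Col12a1, Col14a1, Col22a1 and Col26a1 were not used here. Col1a2 was measured at 721 (682 to 762) and 826 (788 to 866) CPM in fibroblast-like cells and at 1774 (1678 to 1873) CPM in mural-like cells of set 2. Its basal-like levels were 0.134 and 0.379 CPM and its luminal-like levels 0.0909 and 0.468 CPM. Col3a1 reached 449 (419 to 482) and 556 (524 to 589) CPM in fibroblast-like cells and 1527 (1439 to 1619.8) CPM in mural-like cells of set 2, and no Col3a1 UMI was found in the 1354 luminal-like cells of set 1, which allows up to 0.0838 CPM.

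The minor fibrillar chains regulate the width of type I fibrils. Col5a2 (chr1:45374331-45503282) was at 134 and 180.05 CPM in fibroblast-like cells and at 693 (634 to 757) CPM in mural-like cells of set 2. Its partner Col5a1 was at 45.7 and 63.2 CPM in fibroblast-like cells and at 212 CPM in mural-like cells of set 2. Col5a3, which encodes the third type V chain, leaned to mural-like cells, with 590.3 (536 to 649) CPM there in set 2 against 24.8 and 19.6 CPM in fibroblast-like cells. Col27a1 was at 43.5 and 35.9 CPM in fibroblast-like cells and Col11a1 at 9.597 and 17.2 CPM. The cartilage collagen gene Col2a1 and Col24a1 were next to absent, with at most 13 UMIs each in the whole table.

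Ratios between chains of one protein were set across classes, as ratios of UMIs. Col1a1 over Col1a2 was 0.959 (0.886 to 1.04) and 0.764 (0.7102 to 0.821) in fibroblast-like cells and 1.61 (1.499 to 1.72) in mural-like cells of set 2, and these 3 intervals did not overlap. In luminal-like cells of set 2 the ratio was 0.883 (0.628 to 1.24), an interval that overlapped the fibroblast-like one and not the mural-like one. Endothelium-like cells of set 2 stood at 1.45 (0.819 to 2.63), which overlapped the luminal-like interval as well. Col3a1 over Col1a2 was 0.623 (0.569 to 0.681) and 0.673 (0.624 to 0.725) in fibroblast-like cells. Mural-like cells of set 2 stood at 0.861 (0.794 to 0.934), apart from both. The intervals of luminal-like cells (0.883, 0.628 to 1.24) and endothelium-like cells (0.864, 0.442 to 1.67) of set 2 overlapped the fibroblast-like and mural-like ones.

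Type VI collagen, the beaded filament that links cells to the surrounding matrix, followed the fibrillar genes. Its genes summed to 739 and 428 CPM in fibroblast-like cells, to 1885 CPM in mural-like cells of set 2 and to 0 (0 to 12.9) and 28.8 (21.9 to 37.4) CPM in endothelium-like cells. Col6a1 (chr10:76708792-76726044) was at 307 (282 to 334) and 222 (202 to 243) CPM in fibroblast-like cells and at 867 (800.4 to 937) CPM in mural-like cells of set 2. Col6a2 (chr10:76595756-76623630), its neighbor on chromosome 10, was at 194 (174 to 215) and 132 (117 to 149) CPM, and at 472 CPM in mural-like cells of set 2. The Col6a1 to Col6a2 ratio had overlapping intervals, at 1.59 (1.38 to 1.82) and 1.68 (1.45 to 1.96) in fibroblast-like cells and 1.62 (1.03 to 2.61) in the few UMIs of luminal-like cells of set 2. Mural-like cells of set 2, at 1.84 (1.61 to 2.10), and endothelium-like cells of set 2, at 1.45 (0.793 to 2.70), overlapped these as well. Col6a3 (chr1:90766860-90844001), the long α3 chain, was at 147 (130.01 to 166) and 56.5 (46.8 to 67.7) CPM in fibroblast-like cells and at 546 (494 to 603) CPM in mural-like cells of set 2. Of the alternative α chains, Col6a5 was at 89.2 and 15.3 CPM in fibroblast-like cells, whereas Col6a4 and Col6a6 stayed under 2 CPM in all 5 classes.

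The basement membrane collagens divided by chain. Col4a1 (chr8:11198423-11312889) and Col4a2 (chr8:11312805-11449287), which form the common α1α1α2 network and lie head to head on chromosome 8, were highest in the vascular classes. Col4a1 was at 3433 (3299 to 3570.3) CPM in mural-like cells of set 2, at 1315 (1186 to 1455) and 2044 (1981 to 2108) CPM in endothelium-like cells and at 259 (235 to 283) and 159 (142 to 177) CPM in fibroblast-like cells. Basal-like cells held 31.9 (29.6 to 34.3) and 20.8 (15.7 to 27.1) CPM, luminal-like cells 2.25 and 1.33 CPM, and lymphocyte-like cells 1.84 (0.841 to 3.49) and 0 (0 to 22.5) CPM. Endothelium-like cells thus exceeded fibroblast-like cells in both sets, with intervals far apart. Col4a2 was at 1659 (1567 to 1756) CPM in mural-like cells of set 2, at 715 (620.5 to 819.9) and 986 (943 to 1031) CPM in endothelium-like cells and at 107 (92.6 to 124) and 54.6 (45.03 to 65.6) CPM in fibroblast-like cells. The UMI ratio of Col4a1 to Col4a2 was 1.84 (1.55 to 2.19) and 2.07 (1.96 to 2.19) in endothelium-like cells, 2.07 (1.93 to 2.22) in mural-like cells of set 2, 2.41 (2.03 to 2.87) and 2.91 (2.35 to 3.64) in fibroblast-like cells and 2.84 (2.46 to 3.298) and 2.29 (1.39 to 3.87) in basal-like cells. In luminal-like cells it was 8.25 (4.52 to 16.5) in set 1, on 12 Col4a2 UMIs, and 2.11 (1.66 to 2.69) in set 2, on 104. Proximal luminal-like cells stood at 6.11 (4.26 to 9.01) and 2.08 (1.01 to 4.55). The high luminal ratios were thus seen in set 1 only.

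Col4a5 (chrX:141475370-141689236) and Col4a6 (chrX:141165403-141474095) encode chains of other type IV networks and are transcribed away from each other from starts 1343 bases apart on the X chromosome. Both windows of 250 bases are shown because the starts lie side by side and the levels of the pair diverged between classes (Col4a5 chrX:141475169-141475418, plus strand; Col4a6 chrX:141474077-141474326, minus strand; RefSeq, GRCm38.p6; capitals as above).
Col4a5: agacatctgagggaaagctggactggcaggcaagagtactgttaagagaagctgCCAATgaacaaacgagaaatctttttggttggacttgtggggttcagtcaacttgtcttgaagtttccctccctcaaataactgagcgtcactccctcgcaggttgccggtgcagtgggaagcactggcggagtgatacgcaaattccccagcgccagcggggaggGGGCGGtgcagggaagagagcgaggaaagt
Col4a6: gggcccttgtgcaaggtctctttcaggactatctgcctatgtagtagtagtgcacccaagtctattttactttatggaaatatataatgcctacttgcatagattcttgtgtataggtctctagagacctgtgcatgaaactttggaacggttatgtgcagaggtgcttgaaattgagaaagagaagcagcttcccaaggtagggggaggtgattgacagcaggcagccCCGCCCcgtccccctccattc
In fibroblast-like cells Col4a5 was at 72.8 (60.8 to 86.5) and 51.2 (41.99 to 61.9) CPM and Col4a6 at 36.7 (28.3 to 46.8) and 32.1 (24.9 to 40.7) CPM. In set 2 both were near absent from the vascular classes that held Col4a1: mural-like cells had 2.75 and 1.38 CPM, and endothelium-like cells had 2.53 and 1.52 CPM. In set 1, Col4a5 was at 105 CPM, from 14 UMIs, in the 13 cells of stromal sub-cluster 3. These cells, described below, were rich in Acta2, and most were classed as fibroblast-like. In luminal-like cells Col4a6 was the higher of the pair. Luminal-like cells of set 1 held 8.09 (7.27 to 8.97) CPM of Col4a6 and 4.34 (3.75 to 5.001) CPM of Col4a5, and those of set 2 held 1.81 (1.61 to 2.02) and 0.365 (0.278 to 0.469) CPM. The UMI ratio of Col4a5 to Col4a6 was 1.98 (1.46 to 2.72) and 1.597 (1.17 to 2.201) in fibroblast-like cells, 0.663 (0.469 to 0.932) and 0.375 (0.1202 to 1.01) in basal-like cells and 0.537 (0.448 to 0.641) and 0.202 (0.1504 to 0.267) in luminal-like cells. It was above 1 in fibroblast-like cells and below 1 in basal-like and luminal-like cells in both sets, although the interval in basal-like cells of set 2 includes 1, whereas proximal luminal-like cells of set 1 stood at 1.83 (1.31 to 2.56). The luminal-like ratio rested on 1 cluster, luminal cluster 5, which held 275 of the 356 Col4a6 UMIs and 114 of the 191 Col4a5 UMIs of set 1, and 271 of 297 and 45 of 60 in set 2. Its own ratios were 0.415 (0.3303 to 0.518) and 0.166 (0.118 to 0.228). In the other luminal-like cells they were 0.951 (0.687 to 1.32) and 0.577 (0.284 to 1.13), with intervals that include 1. Col4a3 and Col4a4, the remaining type IV chains, were at 46.9 and 16.3 CPM and at 68.9 and 26.8 CPM in fibroblast-like cells.

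Multiplexins differed in their cell classes. Col15a1 (chr4:47207655-47313167), the chain of type XV collagen, was stromal. It stood at 329.7 (303 to 358) and 238 (217 to 259) CPM in fibroblast-like cells, at 603 (548 to 662) CPM in mural-like cells of set 2 and at 199 (151 to 258) and 63.3 (52.7 to 75.4) CPM in endothelium-like cells. Basal-like cells held 0.134 and 0.757 CPM. Col18a1 (chr10:77052178-77166530), the precursor of endostatin, was high in basal cells as well as in the vessel wall. Windows of 2 annotated starts of Col18a1 are shown because 3′ counts do not tell which start a molecule came from (start 1, chr10:77166531-77166780, minus strand; start 2, chr10:77113706-77113955, minus strand; RefSeq, GRCm38.p6; capitals as above).
Col18a1 start 1: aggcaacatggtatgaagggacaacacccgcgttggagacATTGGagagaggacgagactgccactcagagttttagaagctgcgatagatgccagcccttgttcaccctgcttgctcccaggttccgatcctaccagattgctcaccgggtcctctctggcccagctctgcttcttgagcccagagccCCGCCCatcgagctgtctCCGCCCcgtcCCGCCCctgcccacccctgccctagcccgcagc
Col18a1 start 2: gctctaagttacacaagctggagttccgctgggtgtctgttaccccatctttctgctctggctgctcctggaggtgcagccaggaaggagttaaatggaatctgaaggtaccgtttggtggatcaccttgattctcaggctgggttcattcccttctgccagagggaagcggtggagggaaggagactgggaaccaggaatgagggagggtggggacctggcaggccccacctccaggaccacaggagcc
Col18a1 was at 142 (137 to 147) and 149 (135 to 165) CPM in basal-like cells, so the sets did not differ beyond their intervals. It was at 1526 (1437 to 1618) CPM in mural-like cells of set 2 and at 52.3 (29.3 to 86.3) and 196 (177 to 216) CPM in endothelium-like cells. Fibroblast-like cells held 99.9 (85.7 to 116) and 29.2 (22.3 to 37.5) CPM, below the basal-like level in both sets. Luminal-like cells held 5.02 (4.38 to 5.73) and 2.67 (2.43 to 2.94) CPM, and lymphocyte-like cells 1.02 (0.332 to 2.38) and 0 (0 to 22.5) CPM.

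Col16a1 (chr4:130047817-130099277), the FACIT chain of type XVI collagen, was shared by basal cells and fibroblasts. Basal-like cells held 72.2 (68.7 to 75.8) and 28.4 (22.3 to 35.6) CPM and fibroblast-like cells 116 (101 to 133) and 56.5 (46.8 to 67.7) CPM, so both classes were lower in set 2. Luminal-like cells went the other way, with 2.11 (1.71 to 2.59) CPM in set 1 and 7.902 (7.48 to 8.34) CPM in set 2. Lymphocyte-like cells held 0.409 (0.0495 to 1.48) and 0 (0 to 22.5) CPM, and the wide interval of set 2 includes the luminal-like level. Col12a1 (chr9:79598987-79721141), a FACIT chain of dense connective tissue, was at 112 (97.3 to 129) and 233 (212 to 254) CPM in fibroblast-like cells and at 216 (184 to 253) CPM in mural-like cells of set 2. It was higher in fibroblast-like cells of set 2 than of set 1, and basal-like cells held 5.02 and 7.19 CPM. Its relative Col14a1 was at 10.7 (6.46 to 16.8) and 72.8 (61.7 to 85.3) CPM in fibroblast-like cells, and the other FACIT genes Col9a2, Col9a3, Col20a1 and Col22a1 stayed under 4 CPM in all 5 classes.

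Col7a1, the anchoring fibril chain that ties the basal layer to the stroma, was present in basal-like cells at 24.3 (22.3 to 26.5) and 25.7 (19.99 to 32.6) CPM and in fibroblast-like cells at 10.7 (6.46 to 16.8) and 17.7 (12.5 to 24.4) CPM. Col13a1 (chr10:61838234-61979206), a membrane-spanning collagen, was at 57.02 (46.4 to 69.3) and 52.7 (43.3 to 63.5) CPM in fibroblast-like cells and at 149.98 (109 to 202) and 28.8 (21.9 to 37.4) CPM in endothelium-like cells. No Col13a1 UMI was found in the basal-like cells of either set, which allows up to 0.165 and 1.396 CPM. Col23a1, another membrane-spanning collagen, was at 75.1 and 17.2 CPM in fibroblast-like cells and Col25a1 stayed under 7 CPM in all 5 classes. Of the short-chain network genes, Col8a1 was at 30.5 (22.9 to 39.8) and 115 (101 to 131) CPM in fibroblast-like cells. Col10a1, the collagen of hypertrophic cartilage, reached 339.8 CPM in mural-like cells of set 2, but 91.1% of those UMIs came from 1 cell and 30.9 CPM remained without it. Col26a1 and Col28a1 stayed under 7 CPM in all 5 classes.

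Depth differed between classes, so cells were also thinned to 3000 UMIs each, leaving out shallower cells (13 and 62 fibroblast-like, 5 and 18 endothelium-like, 23 and 23 basal-like, 16 and 88 luminal-like, 270 and 25 lymphocyte-like, and 8 mural-like cells of set 2). At that depth a Col1a1 UMI was found in 58.2% (50.7 to 65.4) and 46.8% (41.1 to 52.7) of fibroblast-like cells and in 84.8% (74.97 to 91.9) of mural-like cells of set 2. In basal-like cells the shares were 0.0595% (0.00151 to 0.331) and 0% (0 to 1.09), beside 0.399% (0.0823 to 1.16) and 0% (0 to 16.1) in lymphocyte-like cells. Without thinning, the fibroblast-like shares were 73.6% and 57.3%. The share of basal-like cells with a Col1a1 UMI was not above that of lymphocytes, which is the level read as background.

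For Col4a1 the thinned shares were 94.3% (80.8 to 99.3) and 86.2% (79.7 to 91.2) in endothelium-like cells, 43.5% (36.2 to 50.97) and 30.8% (25.6 to 36.3) in fibroblast-like cells and 9.16% (7.82 to 10.6) and 5.92% (3.65 to 8.99) in basal-like cells. In lymphocyte-like cells they were 0.266% (0.0322 to 0.957) and 0% (0 to 16.1). The basal-like shares lay above the lymphocyte-like share in set 1, while the wide lymphocyte-like interval of set 2, from 21 cells, overlapped them. For Col18a1 the thinned shares were 30.8% (28.6 to 33.1) and 29.9% (25.05 to 35.1) in basal-like cells and 1.12% (0.629 to 1.84) and 0.681% (0.508 to 0.895) in luminal-like cells, against 62.3% and 46.8% of basal-like cells unthinned. For Col16a1 they were 17.5% (15.8 to 19.5) and 7.101% (4.602 to 10.4) in basal-like cells and 0.747% (0.359 to 1.37) and 1.95% (1.65 to 2.29) in luminal-like cells, against 5.54% and 13.8% of luminal-like cells unthinned.

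UMI ratios between collagen genes were compared across classes, and the sources of free RNA were not tested. The UMI ratio of Col18a1 to Col1a2 was 0.138 (0.118 to 0.162) and 0.0353 (0.0269 to 0.0456) in fibroblast-like cells but 1057 (361 to 5127) and 394 (70.3 to 15601) in basal-like cells. In set 2 this ratio was 17.6 (11.5 to 28.4) in endothelium-like and 0.86 (0.793 to 0.933) in mural-like cells. That of Col16a1 to Col1a2 was 0.161 (0.138 to 0.187) and 0.0684 (0.0562 to 0.0824) in fibroblast-like cells, 537 (183 to 2607) and 75 (13.1 to 3001) in basal-like cells and 23.2 (8.78 to 87.1) and 16.9 (13.4 to 21.5) in luminal-like cells. In set 2 it was 0.318 (0.115 to 0.771) in endothelium-like and 0.0287 (0.0201 to 0.0398) in mural-like cells. The epithelial ratios rest on few Col1a2 UMIs (3 and 1 in basal-like cells, 4 and 77 in luminal-like cells), and their intervals lay apart from the fibroblast-like ones in both sets. Basal-like, endothelium-like and mural-like cells are other possible sources of free RNA, and none was tested. The UMI ratio of Col16a1 to Col18a1 was 0.508 (0.478 to 0.5398) and 0.1904 (0.147 to 0.244) in basal-like cells, 0.421 (0.327 to 0.539) and 2.95 (2.65 to 3.299) in luminal-like cells and 0.338 (0.287 to 0.397) and 0.606 (0.399 to 0.911) in proximal luminal-like cells. The basal-like and luminal-like intervals overlapped in set 1 and lay apart in set 2, and the part of basal RNA in the luminal-like levels of set 1 was not tested. In luminal-like cells of set 2 the intervals of the Col1a1 to Col1a2 and Col6a1 to Col6a2 ratios overlapped those of fibroblast-like and endothelium-like cells of that set. The Col6a1 to Col6a2 interval overlapped the mural-like one as well. Each of these genes was under 0.5 CPM in luminal-like cells.

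The barcode sets were compared within each class as log2 ratios of set 2 over set 1, and a gene was counted when it differed at least 2-fold with at least 20 UMIs over both sets. These ratios compare 2 libraries, with no replicate. The summed ratio over all collagen genes was -0.13 (-0.17 to -0.08) in fibroblast-like cells, 0.48 (0.36 to 0.59) in endothelium-like cells, -0.17 (-0.28 to -0.06) in basal-like cells and -0.53 (-0.61 to -0.44) in luminal-like cells. In fibroblast-like cells 3 of 28 genes were higher in set 2, beside 8.0% of all genes tested, and 7 were lower, beside 6.92%. Markers of other cell types differed between the sets in this class as well. The 11 mural or smooth muscle markers, 10 of them found in each set, summed to 3635 and 605 CPM. The 11 myeloid markers, of which 8 and 11 were found, summed to 1471 and 47.4 CPM. The myeloid sum was not particular to this class. It was 5612 and 44.0 CPM in endothelium-like, 2950 and 38.6 CPM in basal-like and 4991 and 29.6 CPM in luminal-like cells. Lymphocyte-like cells went the other way, at 1361 and 3490 CPM. The part of both marker lists in these ratios was not tested beyond leaving out sub-clusters 5 and 7. The higher ones among the collagen genes were Col14a1 (2.76, 2.07 to 3.53), Col8a1 (1.92, 1.49 to 2.37) and Col12a1 (1.05, 0.81 to 1.30). Without stromal sub-clusters 5 and 7, which are described below, 5 genes were higher in set 2, with no share of all genes at hand. The lower ones ran from Col16a1 (-1.04, -1.38 to -0.71) over Col4a4, Col6a3, Col4a3, Col18a1 and Col23a1 to Col6a5 (-2.54, -3.14 to -1.99). The type I chains were among the genes in between, with -0.13 (-0.25 to -0.02) for Col1a1 and 0.20 (0.09 to 0.30) for Col1a2.

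In endothelium-like cells 1 of 10 genes was higher in set 2, beside 17.1% of all genes, and 2 were lower, beside 6.05%. The higher one was Col18a1 (1.90, 1.16 to 2.76) and the lower ones were Col15a1 (-1.65, -2.11 to -1.17) and Col13a1 (-2.38, -2.97 to -1.77), from 40 cells in set 1. Mural markers were higher in set 2 in the same class: 2 of 11 were found in set 1 and 8 of 11 in set 2, with sums of 10.5 and 347 CPM, and Rgs5 in the endothelial sub-cluster was at 3.49 and 202 CPM. Mural-like cells of set 2 held Col18a1 at 1526 CPM, and the part of mural RNA in the endothelium-like ratio was not tested. The network chains differed less, with 0.64 (0.48 to 0.79) for Col4a1 and 0.46 (0.26 to 0.68) for Col4a2. In basal-like cells none of 15 genes was higher, beside 6.74%, and 2 were lower, beside 8.49%: Col16a1 (-1.35, -1.70 to -1.01) and Col8a1. Col18a1 (0.07, -0.08 to 0.22) and Col7a1 (0.08, -0.30 to 0.45) had intervals that include 0 in basal-like cells.

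In luminal-like cells 10 of 23 genes were higher in set 2, beside 14.6% of all genes, and 5 were lower, beside 21.7%. Of the 10 genes that were higher, Col1a1, Col1a2, Col3a1, Col6a1, Col6a2 and Col15a1 are stromal genes, and their luminal-like levels stayed under 0.5 CPM in both sets. Col16a1 (1.90, 1.60 to 2.22) was the member with the highest luminal-like level among them. The lower ones included Col4a5 (-3.57, -4.02 to -3.15), Col4a6 (-2.16, -2.39 to -1.94) and Col7a1 (-1.62, -1.86 to -1.38). The luminal clusters that made up the class differed between the sets, as described below.

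**Figure D3:**
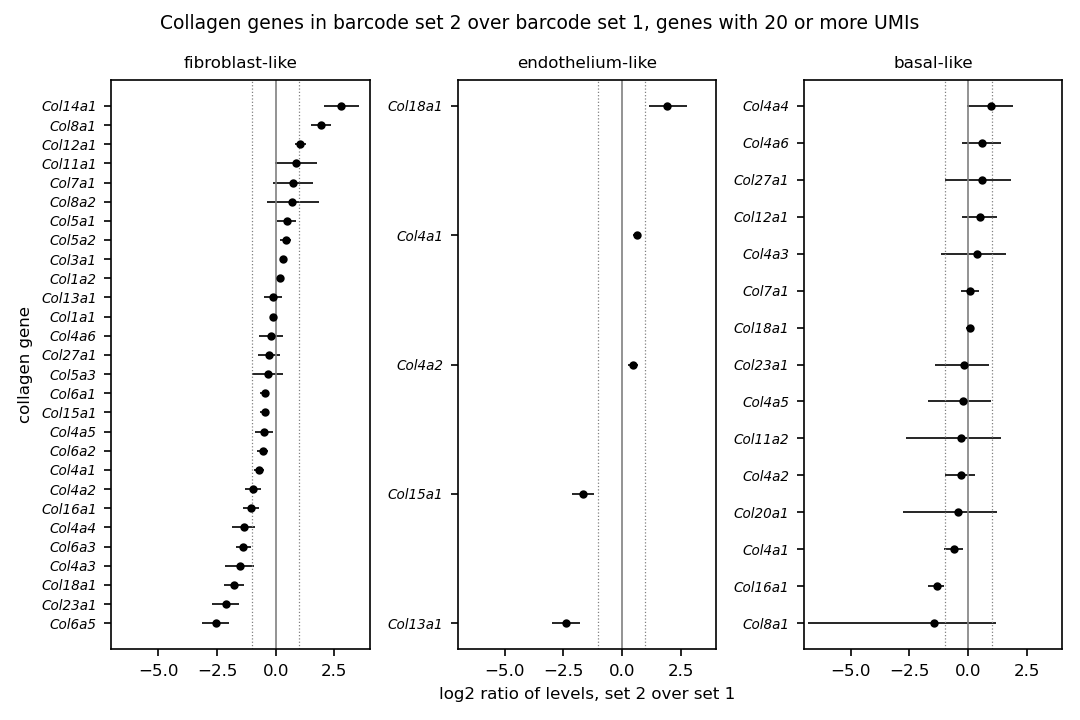
Log2 ratio of collagen gene levels, barcode set 2 over set 1, in fibroblast-like, endothelium-like and basal-like cells, with exact 95% counting intervals and dotted lines at a 2-fold difference; genes with no UMI in a set are left out. Col18a1 lies to the right of 0 in endothelium-like cells (1.90), to the left in fibroblast-like cells (-1.77) and near 0 in basal-like cells (0.07).

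Clustering the stromal cells again, without collagen genes among the features, gave 8 sub-clusters and showed that the fibroblast-like class of each set was a different mixture. Sub-clusters 4, 5 and 7 did not meet the marker rule for a name. All stromal cells kept the class of their first clustering. Sub-cluster 0, led by Cxcl14 and Bgn and spread over both sets (88 and 138 cells), held all collagen genes at 4126 (3991 to 4264) CPM in set 1 and 2377 (2261 to 2498) CPM in set 2, a log2 ratio of -0.80 (-0.88 to -0.71). The cells of this sub-cluster thus had lower collagen levels in set 2, the type I chains included. Within it, Col1a1 was at 629 and 211 CPM and Col1a2 at 684 and 216 CPM. Markers of other cell types differed as well: Acta2 was at 627 and 25.8 CPM, the luminal keratin gene Krt8 at 90.4 and 561 CPM and the reporter EGFP at 26.7 and 625 CPM. Of the 88 cells of set 1, 3 were classed as mural-like. The part of these differences in the ratio was not tested. Sub-cluster 2, led by Apod and Lum (56 and 65 cells), held 4014 (3812 to 4224) and 3806 (3583 to 4038) CPM, a log2 ratio of -0.08 (-0.19 to 0.04). Sub-cluster 4, led by Igfbp5 and Mgp (28 and 65 cells), held 4400.2 (4104 to 4712) and 2808 (2603 to 3025) CPM, a log2 ratio of -0.65 (-0.80 to -0.50). In sub-clusters 0 and 4 the summed collagen was thus lower in set 2, while the interval of sub-cluster 2 included 0.

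Sub-cluster 6 came almost wholly from set 2, with 48 cells there and 1 in set 1. It was led by Pi16 (2632 CPM), a marker of adventitial fibroblasts, and Sfrp4 (1246 CPM), a secreted Wnt antagonist. The summed level of all collagen genes was 13575 (13160.2 to 14001) CPM in these 48 cells. Col1a2 was at 3952 CPM, Col1a1 at 2847 CPM, Col3a1 at 2387 CPM, Col12a1 at 1266 CPM, Col8a1 at 668 CPM and Col14a1 at 302 CPM. The 3 genes that were higher in fibroblast-like cells of set 2 (Col12a1, Col8a1 and Col14a1) were all at several times their class level in this sub-cluster. Without sub-cluster 6, a variant added after the data were seen, the fibroblast-like sum of set 2 was 2350 CPM and the log2 ratio of the sums was -0.82.

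Sub-cluster 3 was led by Rgs5 and Acta2. Its 13 cells of set 1 had all collagen genes at 5669.5 (5272 to 6089) CPM with Acta2 at 15104 and Rgs5 at 52.7 CPM, and its 88 cells of set 2 had 16517 (16229 to 16809) CPM with Acta2 at 1594 and Rgs5 at 7078 CPM. Their log2 ratio of 1.54 (1.44 to 1.65) therefore set smooth muscle-rich cells of one library against Rgs5-rich cells of the other. Of the 13 cells of set 1, 11 had been classed as fibroblast-like and 2 as mural-like, and their sum lay above the fibroblast-like level of that set. Sub-cluster 1, the endothelium (40 and 158 cells), held 2473 (2294 to 2662) and 3717 (3627 to 3808) CPM. Sub-cluster 5 (55 cells of set 2) had 1778 (1685 to 1875) CPM beside Krt8, a luminal keratin, at 6427 CPM and the EGFP reporter at 7784 CPM. Of these 55 cells, 40 were classed as fibroblast-like, 11 as endothelium-like and 4 as mural-like. Sub-cluster 7 (13 cells of set 1) had 3345 (3086 to 3620.03) CPM beside the T cell gene Cd3e at 261 CPM. Without sub-clusters 5 and 7, the fibroblast-like sums were 4505 and 4704 CPM and their log2 ratio turned from -0.13 to 0.06.

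**Figure D4:**
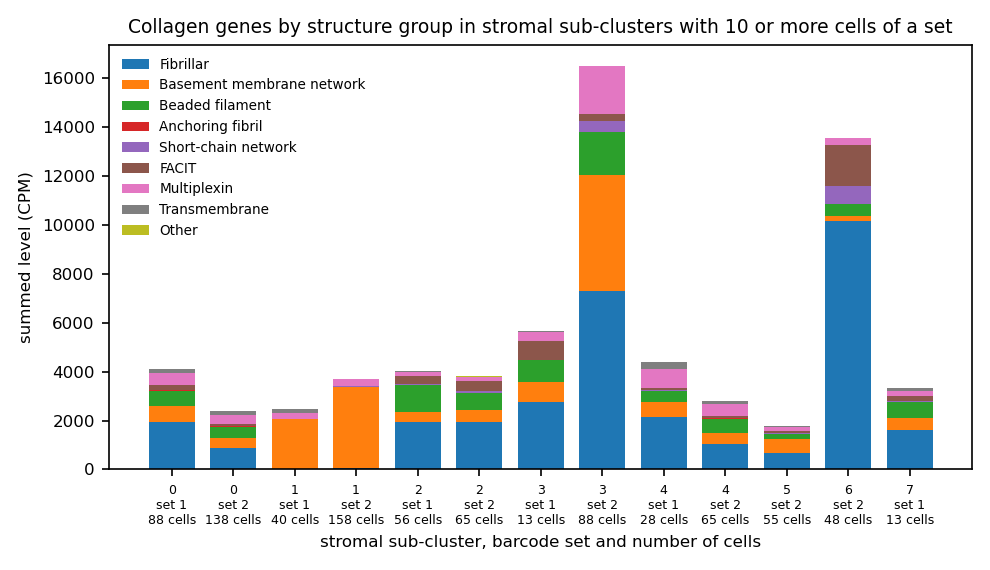
Summed level of all collagen genes (CPM) in each stromal sub-cluster and barcode set, as bars stacked by structure group. Sub-clusters 0 and 4 are lower in set 2, sub-cluster 2 is level, and sub-clusters 3 and 6 of set 2 stand at 16517 and 13575 CPM.

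Within the luminal epithelium, single collagen genes differed between clusters. Luminal cluster 5, led by the secretory genes Tgm4 and Ren1 (621 and 280 cells), held all collagen genes at 36.9 (34.1 to 39.9) CPM in set 1 and 86.2 (79.3 to 93.5) CPM in set 2, a log2 ratio of 1.22 (1.06 to 1.39) that ran against the class as a whole. Luminal clusters 2 and 9 held 26.5 and 31.9 CPM in set 1, not far from cluster 5, and 19.3 and 31.9 CPM in set 2. The lymphocyte-like level of set 2 was 79.5 CPM, or 19.5 CPM without its richest cell. Whether the sum of cluster 5 in set 2 lay above background was therefore not settled. Its Col4a6 stood at 15.9 (14.1 to 17.9) and 40.1 (35.4 to 45.1) CPM, its Col4a5 at 6.59 (5.44 to 7.92) and 6.65 (4.85 to 8.901) CPM and its Col18a1 at 3.12 (2.35 to 4.07) and 13.3 (10.7 to 16.4) CPM. So Col4a6 was higher in set 2 in this cluster while it was lower in set 2 over all luminal-like cells, of which cluster 5 made up 621 of 1354 in set 1 and 280 of 7575 in set 2.

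Col16a1 had another address. Luminal cluster 3, led by Mt4 and Gulo and nearly all from set 2 (1585 cells), held it at 15.7 (14.3 to 17.1) CPM. Luminal cluster 9, led by Msmb and Pbsn (452 and 81 cells), held 2.59 (1.89 to 3.47) and 13.6 (8.87 to 19.9) CPM, a log2 ratio of 2.39 (1.63 to 3.12). Luminal cluster 2, led by the seminal vesicle secretion genes Svs5 and Svs4 (242 and 1585 cells), held 3.19 (2.08 to 4.67) and 5.63 (4.89 to 6.45) CPM, a log2 ratio of 0.82 (0.23 to 1.47). Luminal cluster 5 (621 and 280 cells) held 1.04 and 3.84 CPM, from 18 and 26 UMIs, a log2 ratio of 1.88 (0.96 to 2.84). Higher Col16a1 in set 2 was therefore seen inside clusters 9 and 5 as well as in the makeup of the class, and in cluster 2 by less than 2-fold. Col18a1 was lower in set 2 in cluster 2, at 6.62 (4.97 to 8.64) and 0.758 (0.503 to 1.09) CPM, and all collagen genes of cluster 0, the largest one (3284 cells of set 2), summed to 17.4 (16.4 to 18.5) CPM.

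**Figure D5:**
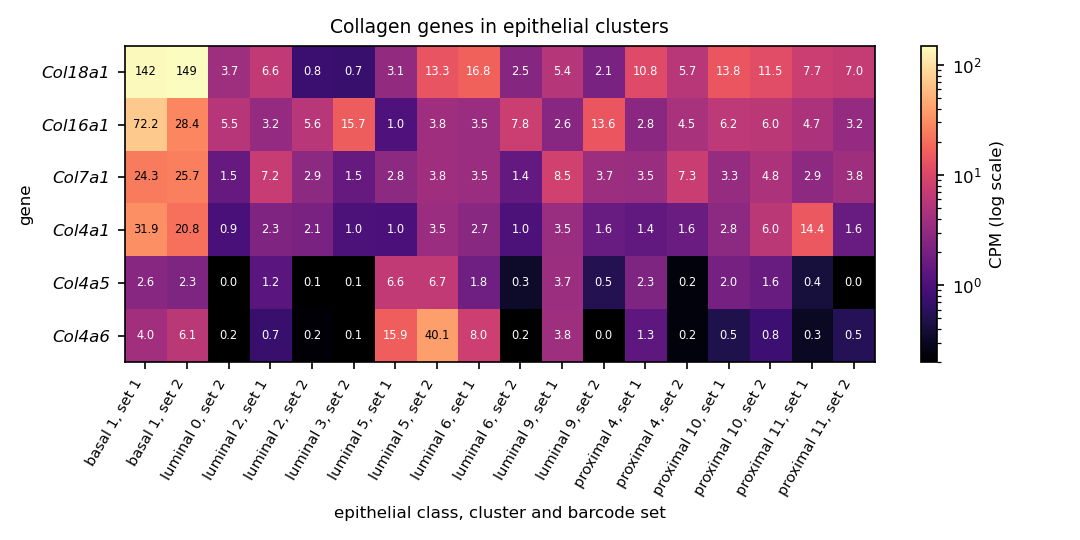
Levels (CPM) of collagen genes in the epithelial clusters of each barcode set. Col18a1 and Col16a1 lead in the basal-like cluster, Col4a6 in luminal cluster 5 (15.9 and 40.1 CPM) and Col16a1 in luminal cluster 3 (15.7 CPM).

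Genes that fold, process and crosslink collagen were read by the same 4-fold rule over lymphocyte-like cells, with the same shares of all genes as background. Of the 23 folding, modification and processing genes, 7 of 17 with enough UMIs passed in fibroblast-like cells (Plod1, P3h3, Crtap, Serpinh1, Fkbp10, Pcolce and Adamts2), 3 of 11 in endothelium-like cells, none of 9 in basal-like cells, none of 15 in luminal-like cells and 11 of 18 in mural-like cells of set 2. Serpinh1, which encodes the collagen chaperone HSP47, was at 685 and 578 CPM in fibroblast-like cells, 1474 CPM in mural-like cells of set 2, 453 and 626 CPM in endothelium-like cells and 9.41 and 20.8 CPM in basal-like cells. Pcolce, an enhancer of procollagen cleavage, was at 896 and 408 CPM in fibroblast-like cells. The broad endoplasmic reticulum genes Ppib and P4hb led the list in luminal-like cells, with Ppib at 2125 and 778 CPM and P4hb at 444 and 317 CPM.

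Among the 5 lysyl oxidase genes, whose enzymes crosslink collagen, Lox, Loxl1 and Loxl2 passed of 4 with enough UMIs in fibroblast-like cells and Loxl2 and Loxl3 of 2 in mural-like cells of set 2. None had enough UMIs in the other classes. Lox was at 280.02 and 188 CPM in fibroblast-like cells, and Loxl2 at 499 CPM in mural-like cells of set 2. Among 10 collagen receptors, Ddr2 passed in fibroblast-like cells (1 of 5), Itgb1 and Ddr1 in basal-like cells (2 of 3), Ddr1 in luminal-like cells (1 of 4) and Itga1, Itgb1 and Ddr2 in mural-like cells of set 2 (3 of 3), whereas none of 2 passed in endothelium-like cells. Itgb1, the β1 integrin chain, was at 848 and 593 CPM in basal-like cells. The receptor kinase Ddr1 was at 73.9 and 42.8 CPM in basal-like cells and 69.6 and 31.4 CPM in luminal-like cells, while Ddr2 passed in fibroblast-like and mural-like cells.

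Of 16 other basement membrane genes, 7 of 12 passed in fibroblast-like cells, 7 of 9 in endothelium-like cells, none of 9 in luminal-like cells and 9 of 10 in mural-like cells of set 2. Sparc, which encodes a collagen-binding protein of basement membranes, was at 2832 and 1418 CPM in fibroblast-like cells, 7372 CPM in mural-like cells of set 2, 3160.1 and 7948 CPM in endothelium-like cells and 44.1 and 59.8 CPM in basal-like cells. Of the laminin chain genes, basal-like cells held Lamb3 at 202 and 89.7 CPM and Lama3 at 104 and 41.6 CPM. Basal-like cells also held Dcn at 2505 and 1183 CPM while their Col1a1 was at 0.0448 and 0.379 CPM.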

How the data were processed

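Droplet single-cell RNA-seq (10x Chromium 3′ v2) was performed by the authors on 1 PIN and 1 PCa library after digestion with collagenase and TrypLE. Per the labels and the study's methods, reads were counted with Cell Ranger 3.1.0 against mm10 with the reporter and transgene sequences added, and droplets without a cell, droplets with several cells and cells with much mitochondrial RNA had been removed. The deposited values are natural log values, ln(1 + 10000 × UMIs of the gene / UMIs of the cell), and 100% of values above 0 returned whole UMIs within a relative tolerance of 0.001. The planned counts were therefore these recovered UMIs.

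Cells were grouped by barcode ending, a technical split. Doublets were scored in each set with Scrublet in scanpy 1.11.5 (Python 3.11.15). The automatic limit called 0 cells, and a limit of 0.25 removed 155 (2.45%) and 175 (1.86%). Cells were integrated and clustered with Seurat 5.3.0 (R 4.3.3; 2000 variable features, 30 principal components, 20 dimensions, resolution 0.5), with 96 collagen and related genes left out of the features, and stromal and leukocyte clusters were clustered again. UMIs were summed per class and set. Sums were given exact Poisson, shares exact Clopper-Pearson and ratios exact conditional binomial 95% intervals with scipy 1.17.1. No test across samples was possible with 1 library per group. Values were given for the 15 collagen genes with at least 50 CPM and 20 UMIs in 1 of the 5 classes in both sets, and the 26 others were given by ranges or where a comparison turned on them. The members, gene lists and markers were chosen with earlier results of these data known. The code was tested on simulated counts. Alternatives varied doublets, resolution, integration, cell weights, scaling, background cells, the minimum of UMIs, the fold and the depth of thinning. The count of other basement membrane genes in basal-like cells is not reported here.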

Additional observations from a re-analysis of the deposited data

Results flagged for a closer look

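Differences between classes in their ratio of set 2 to set 1 were listed for 3 collagen genes. With 1 library per set none of these differences was tested. No share of all genes with such a difference is at hand, so the 3 are not read as particular to collagen genes. Col18a1 was higher in set 2 in endothelium-like cells and lower in fibroblast-like cells, and the 2 log2 ratios (1.90, 1.16 to 2.76, and -1.77, -2.22 to -1.35) were 3.68 apart. Endothelium-like cells of set 1 numbered 40 and held 15 Col18a1 UMIs. Mural markers summed to 10.5 and 347 CPM in endothelium-like cells and to 3635 and 605 CPM in fibroblast-like cells, and their part in the ratios was not tested.

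Col16a1 was higher in set 2 in luminal-like cells (1.90, 1.60 to 2.22) and lower in fibroblast-like (-1.04, -1.38 to -0.71) and basal-like cells (-1.35, -1.70 to -1.01), with differences of 2.94 and 3.25 on the log2 scale. Luminal cluster 3, which held Col16a1 at 15.7 CPM, came nearly all from set 2. The log2 ratio was 2.39 (1.63 to 3.12) within luminal cluster 9, 1.88 (0.96 to 2.84) within cluster 5 and 0.82 (0.23 to 1.47) within cluster 2.

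Col23a1 was higher in set 2 in luminal-like cells (2.54, 1.13 to 4.45) and lower in fibroblast-like cells (-2.12, -2.70 to -1.58), a difference of 4.66 on the log2 scale. Its luminal-like levels were 0.0909 and 0.529 CPM.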

How the results depend on the processing

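No paired analysis was possible because PIN and PCa are 1 library each and no value comes from a test across samples. Settings that leave out single cells or sub-clusters, and UMIs per cell in place of CPM, were chosen after seeing the data, the others were listed earlier. The order of classes by summed level (fibroblast-like over basal-like over luminal-like cells) held in both sets in every setting run. The summed log2 ratio of fibroblast-like cells changed sign at resolution 1.0 (0.50), with every cell at the same weight (0.019) and without stromal sub-clusters 5 and 7 (0.062), and was -0.29 with doublets kept, -0.069 without genes over 1% of UMIs and -0.82 without sub-cluster 6, so no direction between the sets was read from it. At resolution 1.0 the fibroblast-like class held 79 and 142 cells in place of 197 and 361, and 224 and 985 cells of the sets had no class name. With doublets kept the ratio was 0.65 in endothelium-like and -0.31 in basal-like cells, and without integration it was -0.66 in luminal-like cells.

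Summed levels (CPM, sets 1 and 2 where both are given) moved beyond their counting interval as follows. With doublets kept, fibroblast-like cells were at 3946 and 3221, mural-like cells of set 2 at 14901, endothelium-like cells at 1923 and 3024, basal-like cells of set 2 at 246 and luminal-like cells at 35.6 and 24.6. With every cell at the same weight, fibroblast-like cells of set 1 were at 3891, mural-like and endothelium-like cells of set 2 at 15506 and 3112 and luminal-like cells at 36.1 and 24.2. Without genes over 1% of UMIs, fibroblast-like cells were at 4435 and 4227, mural-like cells of set 2 at 18382, basal-like cells at 329.4 and 299.96 and luminal-like cells at 35.4 and 24.5. At resolution 1.0 fibroblast-like cells, by then 79 and 142 in number, were at 4503 and 6381, and without integration luminal-like cells of set 1 were at 36.6. Without the cell richest in collagen, fibroblast-like cells were at 4157 and 3728 and mural-like cells of set 2 at 16398. Without sub-cluster 6, fibroblast-like cells were at 4157 and 2350. Without sub-clusters 5 and 7 they were at 4505 and 4704, and mural-like and endothelium-like cells of set 2 at 18986 and 3712.

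Summed levels over background (log2) were, in set 1, 8.07 in fibroblast-like and 7.03 in endothelium-like cells with doublets kept, 9.04, 8.17, 5.17 and 1.90 in fibroblast-like, endothelium-like, basal-like and luminal-like cells at resolution 1.0, 5.12 and 2.01 in basal-like and luminal-like cells with equal weights, and 7.95, 7.15, 4.15 and 0.93 in the 4 classes against all leukocyte-like cells. Without the background cell richest in collagen they were 8.93, 8.13, 5.13 and 1.91 in set 1 and 7.66, 7.46, 3.81 and 0.24 in set 2, where mural-like cells were at 9.82, and luminal-like cells of set 2 changed sign. In UMIs per cell they were 9.42, 8.29, 6.16 and 4.25 in set 1, and in set 2 9.02 in mural-like, 7.14 in endothelium-like, 2.83 in basal-like and 0.82 in luminal-like cells, the last with a changed sign, and 5 endothelium-like genes passed. Against all leukocyte-like cells 26 genes passed in fibroblast-like, 5 in endothelium-like and 5 in basal-like cells, with no share of all genes at hand. Of the counts between sets, fibroblast-like higher genes were 7 and lower ones 4 at resolution 1.0, with 5 higher without sub-clusters 5 and 7. Endothelium-like genes were 2 higher and 4 lower and basal-like genes 3 higher at a minimum of 10 UMIs. Basal-like genes were 1 higher without genes over 1% of UMIs and 1 lower at a minimum of 50 UMIs, and luminal-like lower genes were 8 at resolution 1.0 and 3 at a minimum of 50 UMIs. No share of all genes is at hand for these counts between sets. Of the levels of single genes, 564 stayed within their interval and 111 moved, and of their log2 ratios 164 stayed and 31 moved. Thinning to 6000 in place of 3000 UMIs per cell moved 81 percents of cells with a UMI beyond their interval and left 54 within it, with fewer and deeper cells kept. Col1a1 was then found in 76.4% and 66.7% of fibroblast-like cells, after 74 and 271 cells were left out, against 58.2% and 46.8% at 3000. At 1 to 3 UMIs a level is known only to its order of magnitude.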
